A study of Mus musculus with 8 samples.

Results

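The angiopoietin and Tie receptor axis was followed through 6 genes, taken by name from the 24421 rows of a count table: the ligands Angpt1 and Angpt2, the receptors Tek (Tie2) and Tie1, the phosphatase Ptprb (VE-PTP) and the transcription factor Foxo1. All 6 symbols were present. RNA came from endothelial cells of embryonic mouse brain at E14.5, strain C57Bl6, with 4 libraries of Flvcr2 heterozygous embryos and 4 of Flvcr2 knockout embryos. The mutant Flvcr2 allele drives GFP, and cells positive for GFP and for CD31, the protein of Pecam1, were sorted, 2000 to 5000 per library. The controls therefore carry the mutant allele too, no wild-type group is among the libraries, and each library shows only cells in which the reporter was on. The labels do not tie each library to an embryo of its own, so the p-values measure only the spread between libraries, which may be partly technical.

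The axis sets how quiet or how plastic a vessel is. Angpt1, made mainly by perivascular cells, activates the receptor Tie2 on endothelium, and the PI3K and AKT kinases downstream keep FOXO1 out of the nucleus. Angpt2 is made and stored by endothelial cells, most of all at sprouting or remodelling vessels, and often acts as a weak agonist or antagonist of Tie2. Tie1 has no angiopoietin bound on its own and modulates Tie2, VE-PTP removes phosphate from Tie2, and Angpt2 is itself a target gene of FOXO1.

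Library depth ran from 9.11 to 35.9 M counts. Levels below are CPM, the count relative to the library's total after TMM scaling, as mean ± SD over 4 libraries unless a library is named. Endothelial markers were high in every library, at 6504 to 10283 CPM summed over 12 genes in heterozygous and 9493 to 13055 CPM in knockout libraries. Of the 12, 3 (Emcn, Ecscr and Mmrn2) were called higher in knockout, beside 5.53% of all genes tested. At an unadjusted edgeR p under 0.05, 7 of the 12 were higher and 1, Cldn5, was lower (log2 fold change -0.45). Over the whole table, 3473 of the 13540 genes tested were under that threshold, in either direction. Summed markers of pericytes and smooth muscle ran from 386 to 566 CPM in heterozygous libraries and were 56.3, 177, 619 and 42.2 CPM in knockout libraries 1 to 4. Summed markers of neurons ran from 273 to 1724 CPM and from 87.2 to 258 CPM, and those of microglia from 512 to 1506 CPM and from 136 to 888 CPM. In bulk RNA, fewer cells of a type cannot be told from less RNA per cell. Flvcr2, counted under its older symbol Mfsd7c, ran from 276 to 578 CPM in the controls and from 227 to 393 CPM in the knockouts. Since transcripts of the mutant allele may be counted there, it does not check the labels.

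Of the 6 genes, 5 passed the filter on low counts, and of these only Angpt2 was called different between the genotypes. For comparison, 9.55% of the 13540 genes tested were called in either direction and 5.53% were called higher in knockout (edgeR quasi-likelihood test, Benjamini-Hochberg adjusted p under 0.05). The ligand Angpt2 rose 18.7-fold between means, while its receptors, the phosphatase and Foxo1 kept overlapping levels. A gene not called may still differ, since 34% of simulated 2-fold changes were recovered.

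Angpt2 was lowest in heterozygous 1, with 201 counts or 19.1 CPM, and it stood at 34.6, 52.5 and 33.4 CPM in heterozygous 2 to 4. In knockout 1 to 4 it stood at 1109, 282, 510 and 704 CPM, from 3236 to 24389 counts. Every knockout library lay above every heterozygous library, and the lowest knockout library was 5.36-fold above the highest heterozygous library. Groups failed to overlap in this way for 17.6% of all genes tested. The means were 34.9 ± 13.7 and 651 ± 351 CPM, a log2 fold change of 4.22 ± 0.44 (SE; 95% interval 3.24 to 5.19; edgeR adjusted p = 8.45e-04). Among all genes tested it ranked 12 by size of rise and 20 by p.

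The knockout spread of Angpt2 was wide, with knockout 1 highest and knockout 2 lowest. Counting error was small beside it, at 0.64% to 7.05% of a library's value. In the fits that left out 1 library at a time the log2 fold change ran from 3.84 (without knockout 1) to 4.49 (without heterozygous 3), and all 8 fits called it. Heterozygous 2 and knockout 1 held Y-linked transcripts with almost no Xist, and the other libraries held Xist. Without that pair the log2 fold change was 3.83 ± 0.45 (edgeR adjusted p = 0.0115). With libraries scaled to the 12 endothelial markers instead of TMM, the log2 fold change was 3.90 ± 0.33 (edgeR adjusted p = 8.65e-05).

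Angpt2 lies on the minus strand of chromosome 8 (GRCm38, chr8:18690263-18741562), inside the span of Mcph1, a DNA damage response gene on the opposite strand. No exon bases of the pair overlap. Mcph1 was low in both genotypes, 7.11 ± 3.15 CPM against 6.26 ± 2.71 CPM in knockout, and was not called (log2 fold change -0.18 ± 0.47, edgeR adjusted p = 0.846).

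**Figure D1:**
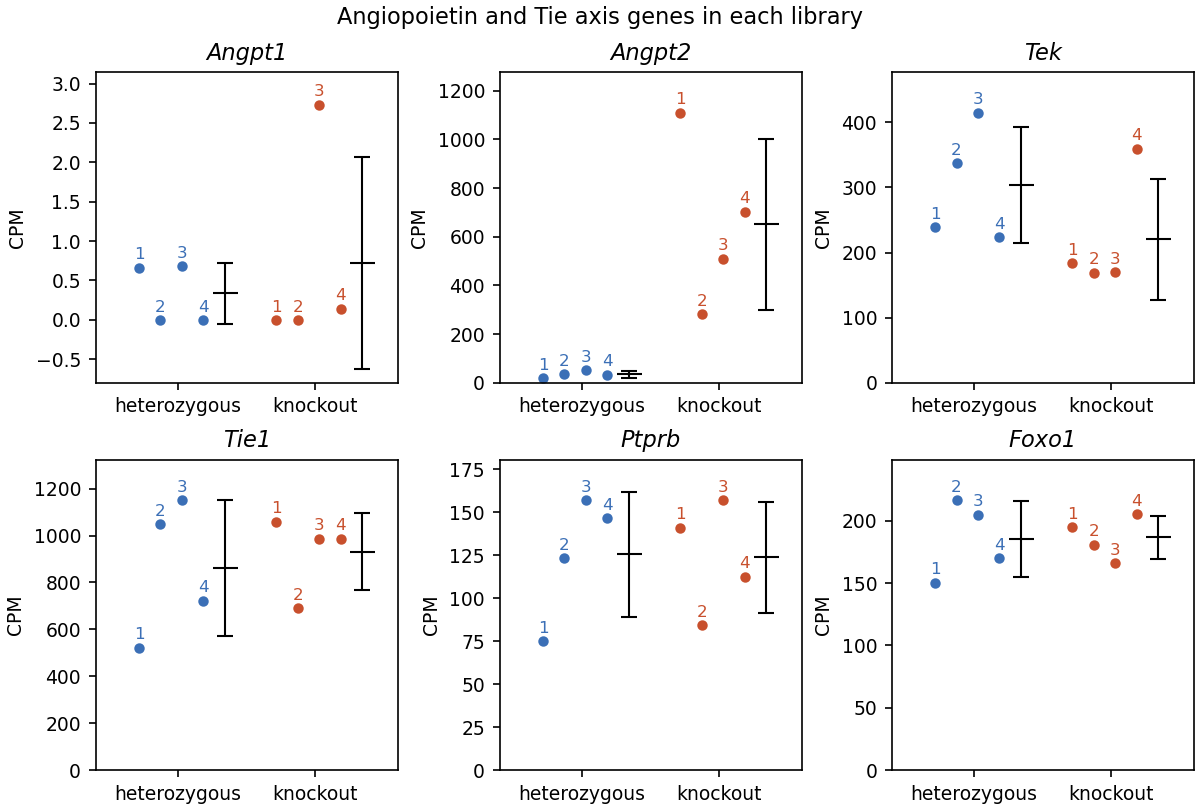
CPM of the 6 genes in each library (numbered points), with the mean and SD of each genotype at the right of its points (n = 4 each); each panel has its own linear axis. The 4 knockout libraries sit at 282 to 1109 CPM of Angpt2 and the heterozygous libraries at 19.1 to 52.5 CPM, while the other 5 genes overlap.

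The other ligand, Angpt1 (minus strand, chr15:42424723-42676977), was close to the detection limit. It had 7, 0, 16 and 0 counts in heterozygous libraries 1 to 4 and 0, 0, 48 and 5 counts in knockout libraries 1 to 4. A count of 0 allows up to 0.153 to 0.319 CPM in those 4 libraries, taking 3 counts as the floor. This and the intervals for single libraries cover counting error only. The highest value, 2.73 CPM in knockout 3, has an exact 95% Poisson interval of 2.02 to 3.62 CPM. Angpt1 failed the filter and was not tested; without the filter it was not called (edgeR adjusted p = 0.763), and no difference was detectable at this depth. An antisense gene, Gm17473, overlaps 737 exon bases of Angpt1, and without the strand setting of the counting its reads cannot be told apart.

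Knockout 3 also had the highest marker sums for pericytes and for platelets. Its pericyte and smooth muscle markers summed to 619 CPM, of which Vtn gave 412 CPM. Their mean log2 CPM was 2.78, below the 3.16 to 3.46 of heterozygous libraries. Its 7 megakaryocyte and platelet markers summed to 436 CPM, against 23.5 to 150 CPM in the other 7 libraries. The part of these cells in the Angpt1 counts was not tested. Heterozygous 2 and 4, with 439 and 566 CPM of pericyte markers, had no Angpt1 count. Of the 14 pericyte and smooth muscle genes, 13 were tested, 3 fell (Cspg4, Des and Tbx18) and 0 rose, and their median log2 fold change was -1.65 beside -0.03 for all genes tested, of which 4.02% were called lower. Markers of some other cells fell too, 7 of 10 for neurons (median -2.41), 3 of 9 for radial glia (median -1.89) and 2 of 4 tested for erythroid cells (median -3.31). Erythroid markers summed to 229 to 611 CPM in heterozygous and 18.1 to 51.8 CPM in knockout libraries. Summed radial glia markers did not fall, at 1303 to 1422 CPM and 1319 to 1564 CPM. That sum was mostly Vim (868 ± 118 and 1059 ± 124 CPM) and Nes (206 ± 44.5 and 264 ± 36.7 CPM). The mean log2 CPM of radial glia markers ran from 4.53 to 5.84 in heterozygous and from 2.35 to 4.44 in knockout libraries. Falls were called for 1 of 11 microglia, 0 of 9 fibroblast and meninges, and 0 of 7 platelet markers. Their medians were -1.25 for microglia, -0.57 for fibroblasts and meninges and 0.38 for platelets. The part of these cells in the results below was not tested. Myh11, a defining gene of smooth muscle, had 8 counts in all.

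Angpt2 was also high in the knockout library richest in pericyte transcripts. Knockout 3 had 510 CPM of Angpt2, 9.71-fold above the highest heterozygous library. Its pericyte marker sum lay above all 4 heterozygous libraries, but mostly through Vtn (412 CPM). By mean log2 CPM of those markers it was at 2.78, below all 4 heterozygous libraries. With this mean, the pericyte score, as a covariate, the log2 fold change of Angpt2 was 3.40 ± 0.54 and the call was lost (edgeR adjusted p = 0.0520). That score was 3.16 to 3.46 among heterozygous libraries and 0.52 to 2.78 among knockouts, so it separated the genotypes itself, and 16 genes of the whole table were called in that fit.

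**Figure D2:**
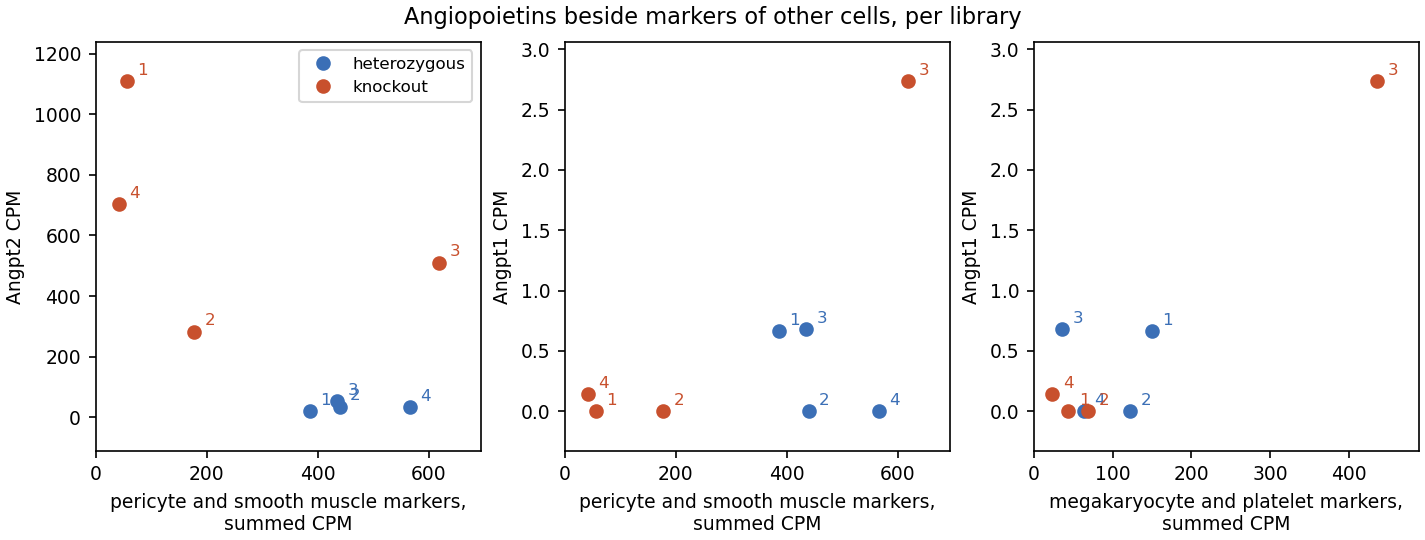
CPM of Angpt2 and Angpt1 (vertical axes) against summed CPM of pericyte and smooth muscle markers or of megakaryocyte and platelet markers (horizontal axes), with 1 numbered point per library. Knockout 3 has 510 CPM of Angpt2 at a pericyte marker sum of 619 CPM, and it holds the highest Angpt1 value, 2.73 CPM.

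Counts of Angpt2 relative to its receptor do not depend on how libraries are scaled. The ratio of Angpt2 to Tek counts was 0.0798, 0.103, 0.127 and 0.149 in heterozygous libraries 1 to 4. In knockout libraries 1 to 4 it was 6.05, 1.67, 3.0 and 1.96. The groups did not overlap, and the mean ratio was 27.6-fold higher in knockout. The ratio of Angpt2 to Angpt1 was 28.7 in heterozygous 1 and 76.9 in heterozygous 3, against 187 in knockout 3 and 4878 in knockout 4, the last from 5 Angpt1 counts. In the libraries with no Angpt1 count it was at least 109 and 201 in heterozygous 2 and 4, and at least 7234 and 1079 in knockout 1 and 2.

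Tek, the receptor tyrosine kinase Tie2, is on chromosome 4 (plus strand, chr4:94739289-94874976). Its level was 239, 337, 415 and 224 CPM across heterozygous 1 to 4, against 183, 169, 170 and 360 CPM across knockout 1 to 4. The genotypes overlapped through knockout 4 alone, the other knockout libraries lying below all heterozygous ones. The means were 304 ± 89.5 and 221 ± 93.0 CPM, a log2 fold change of -0.46 ± 0.28 (95% interval -1.08 to 0.16; edgeR adjusted p = 0.339). Without knockout 4 the log2 fold change was -0.80 ± 0.22 (edgeR adjusted p = 0.0733). In no alternative fit was Tek called, and its sign was negative in all of them.

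Tie1, the receptor that pairs with Tie2, lies on the same chromosome (minus strand, chr4:118471191-118490061) and was the most abundant of the receptor genes. Heterozygous 1 to 4 gave 522, 1048, 1151 and 723 CPM of it, and knockout 1 to 4 gave 1060, 691, 986 and 986 CPM. The ranges overlapped, with means of 861 ± 291 and 931 ± 164 CPM. The log2 fold change was 0.11 ± 0.24 (95% interval -0.42 to 0.65; edgeR adjusted p = 0.812), and its sign turned when library size alone or the endothelial markers set the scaling.

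The ratio of Tie1 to Tek counts was 2.18 to 3.23 in heterozygous libraries. It was 5.77, 4.08, 5.80 and 2.74 in knockout libraries 1 to 4. The genotypes overlapped, again through knockout 4 alone.

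Ptprb encodes the vascular endothelial phosphatase that acts on Tie2 and on the VE-cadherin complex (chr10:116275523-116389535). It ran from 75.0 CPM in heterozygous 1 to 157 CPM in heterozygous 3, and from 84.2 CPM in knockout 2 to 157 CPM in knockout 3. Means were 125 ± 36.4 and 124 ± 32.1 CPM (log2 fold change -0.02 ± 0.25, 95% interval -0.57 to 0.53; edgeR adjusted p = 0.969). The genotypes covered nearly the same range. Its ratio to Tek counts was 0.428 ± 0.154 in heterozygous and 0.626 ± 0.273 in knockout libraries, which overlapped.

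Foxo1 (chr3:52268336-52353221) varied least among libraries. Its values were 150, 217, 205 and 170 CPM for heterozygous 1 to 4, next to 195, 181, 166 and 205 CPM for knockout 1 to 4. The log2 fold change was 0.01 ± 0.15 (edgeR adjusted p = 0.976). Its 95% interval, -0.32 to 0.34, was the narrowest of the 5 genes tested, and its sign turned in 11 of 22 alternative fits. Exons of Foxo1 share 674 bases with the antisense gene Gm20402. These values are of RNA, and where FOXO1 protein sat in the cells was not measured.

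Levels of different genes can be compared only per length, and CPM was therefore divided by the kilobases of exon in the GENCODE annotation. In heterozygous libraries Tie1 was highest, at 175 ± 59.1 CPM per kb, followed by Tek at 64.4 ± 19.0 and Foxo1 at 21.4 ± 3.54. Angpt2 and Ptprb came next, at 9.46 ± 3.72 and 9.41 ± 2.73, and Angpt1 was at 0.0647 ± 0.0748. Neighbours in this order did not overlap across heterozygous libraries, except for Angpt2 and Ptprb.

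In knockout libraries Angpt2 moved to the level of Tie1, at 176 ± 95 against 189 ± 33.3 CPM per kb. These ranges overlapped, and Angpt2 exceeded Tie1 in 1 of 4 knockout libraries. Angpt2 exceeded Tek, at 46.8 ± 19.7 CPM per kb, in 4 of 4 knockout and 0 of 4 heterozygous libraries. Foxo1 and Ptprb followed at 21.5 ± 1.97 and 9.27 ± 2.41 and did not overlap with each other or with Tek. Among 13039 tested genes with a known length, Angpt2 stood at percentile 52.5 to 72.8 among heterozygous libraries and 92.5 to 98.7 among knockouts. Tie1 stayed between percentiles 95.7 and 98.7 in all 8.

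**Figure D3:**
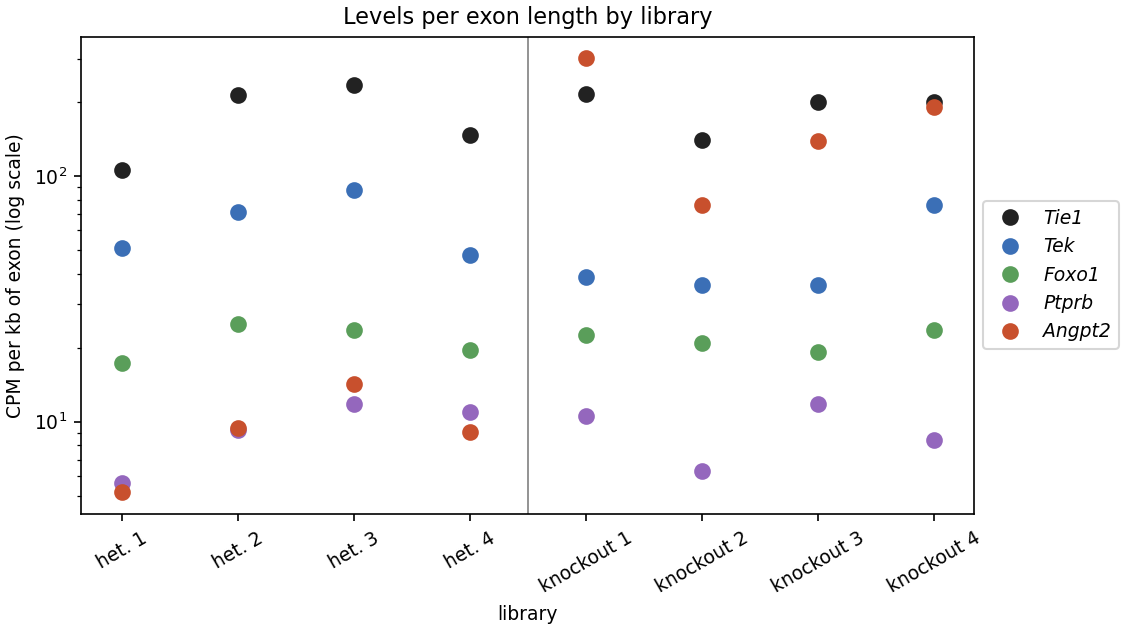
CPM per kilobase of exon (logarithmic axis) of Tie1, Tek, Foxo1, Ptprb and Angpt2 in each of the 8 libraries. Angpt2 lies beside Ptprb, between 5.17 and 14.2, in heterozygous libraries and above Tek, between 76.4 and 301, in knockout libraries, whereas Tie1 is above Tek in all 8.

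Among 10077 other genes of at least 5 CPM on average over all 8 libraries, the closest to Angpt2 in its profile over the 8 libraries were Esm1, Clca2 and Rab15. Likeness was the root mean square difference of mean-centred log2 CPM, which was 0.38, 0.43 and 0.43. For a gene with so large a step between genotypes, this measure picks genes with a like step. The rise of these genes in knockout was thus set by the choice. Esm1 encodes endocan, a proteoglycan secreted by endothelial tip cells. Its mean went from 11.0 ± 5.14 CPM to 155 ± 62.2 CPM in knockout. Clca2, which reached that average through the knockouts, was at 2.36 ± 0.519 and 37.6 ± 10.2 CPM, and Rab15, a small GTPase of endosomes, at 11.4 ± 6.78 and 157 ± 66.3 CPM. For the genes that were not called, the nearest profiles were Topbp1 for Tek, Clcn7 for Tie1, Bcas3 for Ptprb and Cers5 for Foxo1, at 0.16, 0.10, 0.10 and 0.08.

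Relatives of the angiopoietins were mostly scarce. Of 9 further genes (angiopoietin-like genes, Angpt4 and the Tie1 ligands Svep1 and Lect2), 3 passed the filter, and Lect2 had no count in any library. Angptl4, whose product inhibits lipoprotein lipase, fell 3.88-fold, opposite to Angpt2. Its heterozygous libraries 1 to 4 had 138, 221, 292 and 225 CPM, and its knockout libraries 69.9, 32.6, 76.5 and 47.0 CPM (log2 fold change -1.96 ± 0.29, edgeR adjusted p = 0.00390). The groups did not overlap, and the call held in all 8 fits without 1 library but not with the pericyte or the neuronal score as a covariate (-1.66 and -1.59). Angptl2 and Angptl6 were not called (log2 fold changes -0.62 ± 0.61 and 0.66 ± 0.28).

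Of 27 adaptors, kinases and targets of signalling below Tie2, 0 rose and 2 fell, with a median log2 fold change of -0.12 beside -0.03 for all genes. At an unadjusted p under 0.05, 1 was higher and 5 were lower in edgeR, and DESeq2 and limma voom each called 0 higher and 3 lower. Among all 13540 genes tested, edgeR called 5.53% higher and 4.02% lower, and 3473 were at an unadjusted p under 0.05. Over the whole table DESeq2 called 1110 genes higher and 1119 lower, and limma voom 789 and 670. Akt1, the most abundant AKT kinase here, was at 463 ± 72.6 and 520 ± 141 CPM, and Nos3, the endothelial nitric oxide synthase, at 540 ± 126 and 438 ± 53.9 CPM, and neither was called.

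Grb7, an adaptor that docks on phosphorylated Tie2 and other receptor kinases, had the larger fall. It had 50, 131, 238 and 167 counts in heterozygous 1 to 4 and 7, 0, 0 and 15 counts in knockout 1 to 4, which is 4.75 to 13.9 CPM and 0 to 0.433 CPM (log2 fold change -5.39 ± 0.94, edgeR adjusted p = 0.00691). All 8 fits without 1 library called Grb7, and the call was lost without heterozygous 2 and knockout 1 (-5.48). Pak1, a kinase that regulates the cytoskeleton, had 62.1, 20.9, 24.9 and 17.5 CPM in heterozygous 1 to 4 against 9.45, 8.62, 13.0 and 7.42 CPM in knockout 1 to 4. Its log2 fold change was -1.70 ± 0.40 (edgeR adjusted p = 0.0261). Heterozygous 1, the highest library for Pak1, was also the highest for neuron markers (1724 CPM summed), whose part in the value was not tested. Pak1 lost its call without knockout 1, 2 or 4, at log2 fold changes of -1.69, -1.66 and -1.59. With the neuronal score, which itself separated the genotypes, as a covariate, the log2 fold change of Pak1 was -0.42.

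Partners of Tie2 and VE-PTP, listed with the sheddases Mmp14, Adam17 and Adam10, were mixed. Of these 14 genes, 2 rose and 1 fell (median log2 fold change 0.04), beside 5.53% and 4.02% of all genes. At an unadjusted edgeR p under 0.05, 5 were higher and 2 lower, beside 3473 of 13540 genes in either direction. The integrin subunit Itgb1 rose from 523 ± 124 to 946 ± 236 CPM (log2 fold change 0.85 ± 0.22, edgeR adjusted p = 0.0382). Itgb3, the integrin subunit that pairs with the alpha-v chain, had 5.60, 10.5, 1.20 and 5.94 CPM in heterozygous 1 to 4, and 60.6, 5.49, 68.3 and 41.9 CPM in knockout 1 to 4. Its log2 fold change was 2.95 ± 0.74, and it was called (edgeR adjusted p = 0.0327) although knockout 2 lay within the heterozygous range. Jup, plakoglobin of endothelial junctions, fell from 419 ± 96.6 to 217 ± 29.7 CPM without overlap (log2 fold change -0.95 ± 0.18, edgeR adjusted p = 0.0108). Jup kept its call in all 8 fits without 1 library and lost it without heterozygous 2 and knockout 1 together (-0.98). Itgb1 lost it without heterozygous 1, 2 or 4 or knockout 1 or 4 (log2 fold change 0.71 to 0.92), and Itgb3 without heterozygous 1, 3 or 4 or knockout 1, 3 or 4 (2.59 to 2.98). With scaling to endothelial markers neither rise was called, at 0.55 for Itgb1 and 2.55 for Itgb3.

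Of 11 other FOXO factors and regulators of FOXO, 0 were called by edgeR, with 1 higher and 1 lower at an unadjusted p under 0.05. With 9.55% of all genes called, and 3473 of 13540 at an unadjusted p under 0.05, so short a list does not set these genes apart. DESeq2 called 1 higher and 1 lower, and limma voom 1 higher. Sgk1, a kinase that phosphorylates FOXO proteins, averaged 173 ± 51.9 CPM in the controls against 286 ± 53.4 CPM (log2 fold change 0.72 ± 0.22, edgeR adjusted p = 0.0644). DESeq2 and limma voom called it (adjusted p = 0.0131 and 0.0438), as did edgeR without heterozygous 4 (0.93). Prmt1, a methyltransferase that modifies FOXO1, was at 196 ± 54.4 and 175 ± 42.5 CPM.

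Genes known as FOXO targets, Angpt2 left aside, went both ways: 3 of 24 rose and 4 fell, with a median log2 fold change of -0.38, beside 5.53% and 4.02% of all genes tested. Cdkn1a, a cell cycle inhibitor that p53 also induces, rose from 277 ± 97.0 to 1385 ± 324 CPM, and Trib1, a pseudokinase, from 36.1 ± 6.58 to 76.3 ± 4.11 CPM. Bcl2l11, which encodes the pro-apoptotic protein BIM, also rose (log2 fold change 0.82 ± 0.23). Txnip, a thioredoxin inhibitor, fell from 163 ± 25.3 to 44.5 ± 13.8 CPM, and Tsc22d3, the glucocorticoid-induced leucine zipper gene, from 231 ± 42.0 to 114 ± 20.2 CPM. Catalase (Cat) and Klf2 completed the falls. Cdkn1a, Trib1, Txnip and Tsc22d3 did not overlap between genotypes and were called in all 8 fits without 1 library. Trib1 lost its call with scaling to endothelial markers, at 0.77, and Tsc22d3 without heterozygous 2 and knockout 1, at -1.04.

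Of 16 transcription factors linked to the Angpt2 gene, 0 rose and 3 fell, beside 5.53% and 4.02% of all genes. At an unadjusted edgeR p under 0.05, 0 were higher and 4 lower, beside 3473 of 13540 genes in either direction. DESeq2 and limma voom called none of the 16 higher. Klf2, a factor induced by blood flow, fell from 282 ± 102 to 111 ± 21.0 CPM (log2 fold change -1.35 ± 0.25, edgeR adjusted p = 0.00930). Its highest knockout library, 137 CPM, lay below its lowest heterozygous library, 172 CPM. All 8 fits without 1 library called Klf2, and the call was lost without heterozygous 2 and knockout 1 together (-1.39). Fos, part of AP-1, fell from 293 ± 157 to 102 ± 33.9 CPM, and Fli1, an ETS factor of endothelium, from 220 ± 46.6 to 133 ± 26.0 CPM, both with overlap. The Fos call held only without heterozygous 2 among the 8 fits (otherwise -1.14 to -1.71), and the Fli1 call without heterozygous 1 or knockout 4. Ets1, Hif1a and Epas1, factors for sprouting and low oxygen, were not called (log2 fold changes -0.10, -0.07 and 0.20).

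**Figure D4:**
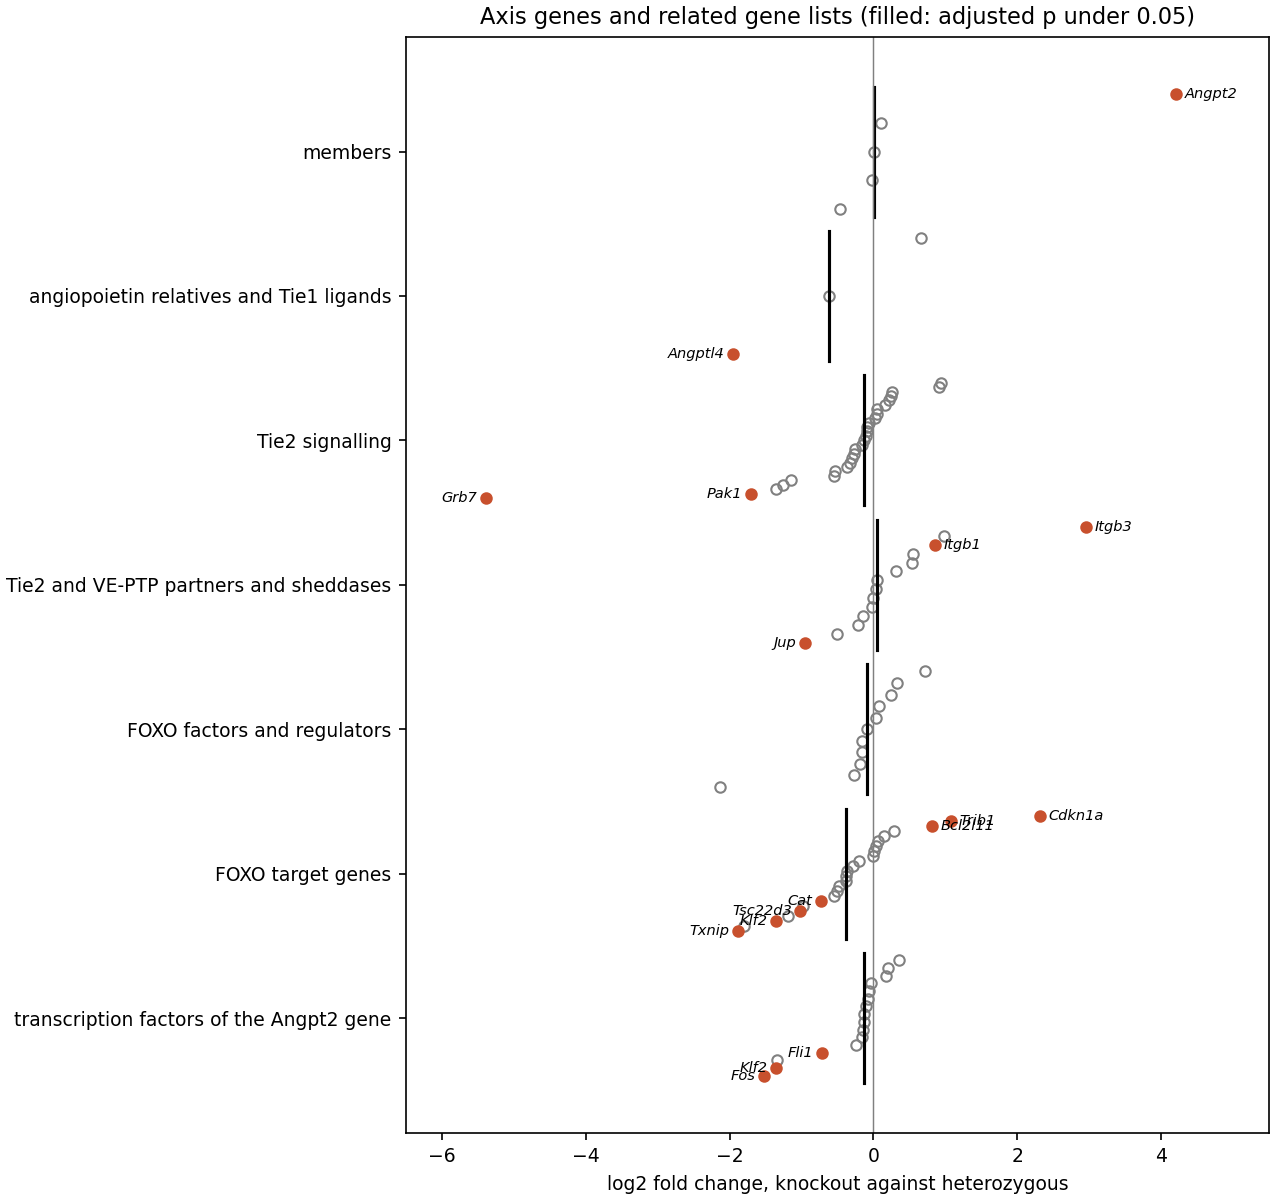
Log2 fold change of knockout against heterozygous libraries (horizontal axis) for the tested axis genes and the related lists (rows), with 1 point per gene, filled and named where the adjusted p was under 0.05, and a bar at each list's median. Angpt2 stands at 4.22 while the medians of the signalling and transcription factor lists lie at -0.12 and -0.13.

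The pattern of at most a single called member held over the ways of analysing the table. Angpt2 was called in 21 of 22 alternative fits, with log2 fold changes from 3.40 to 4.49. Tek, Tie1, Ptprb and Foxo1 were called in 0 of 22 each. The smallest adjusted p among these was 0.0733, for Tek without knockout 4 (edgeR).

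**Figure D5:**
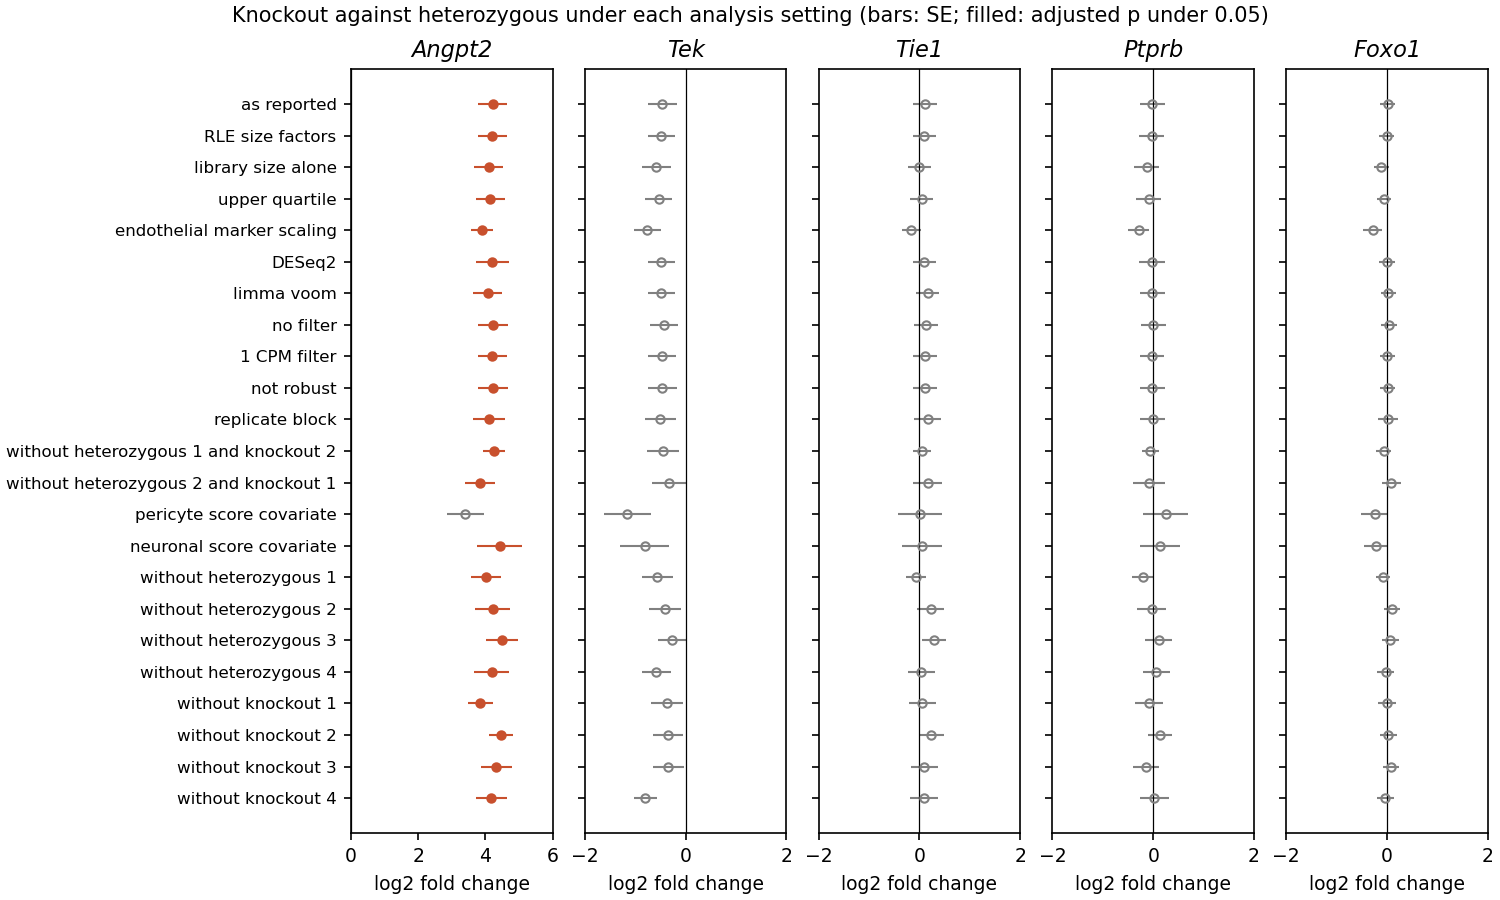
Log2 fold change (horizontal axes, bars SE) of the 5 tested genes under each analysis setting (rows), with filled points where the adjusted p was under 0.05. Angpt2 lies between 3.40 and 4.49 in all rows and Tek between -1.16 and -0.27.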

How the data were processed

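The authors deposited raw counts per gene symbol for 8 libraries. The submitters' processing notes name TopHat2 0.7, Cufflinks 2.2.1 and mm10. The counting program, its strand setting and its handling of multiply mapped reads are not stated in the sources used here, so reads of overlapping antisense genes cannot be separated. Per the labels' protocols, cDNA was made with SMART-Seq v4 and libraries with Nextera XT. Reads were single-end and 50 nucleotides long.

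Genes were filtered with filterByExpr (minimum count 10, minimum total 15) of edgeR 4.0.16 in R 4.3.3, scaled by TMM and tested by quasi-likelihood F-test over 13540 genes with Benjamini-Hochberg adjustment. DESeq2 1.42.0 and limma voom (3.58.1) were alternatives. Positions and exon lengths are from GENCODE M21 (GRCm38, the build mm10). On simulated counts for this comparison (13198 genes), 34% of 100 genes changed 2-fold and 69% of 100 changed 4-fold were recovered, with 5 of 108 calls false. Library pairs of a genotype differed beyond sampling noise (lowest chi-square of counts 28.9 per degree of freedom).

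The members and lists were chosen with earlier results of these data known. Named genes are all members, up to 4 called genes per list by smallest p (or the 2 most abundant), and the 3 profiles nearest to each member, of which the nearest is named for members not called. Other genes named (such as Angptl2, Angptl6, Akt1, Nos3, Bcl2l11, Cat, Ets1, Hif1a, Epas1 and Mcph1) were chosen after their values were seen.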

Additional observations from a re-analysis of the deposited data

Results flagged for a closer look

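In 50 sets of 4 libraries (the 6 genes, 4 of their count ratios and 15 list genes, by genotype), 4 had a library set apart from the other 3 by more than the 95% critical value of Dixon's test (0.829). Chance gives about 1 in 20. Knockout 3 stood apart for Angpt1 (2.73 CPM), knockout 4 for Tek (360 CPM), heterozygous 1 for Pak1 (62.1 CPM) and knockout 2 for Prmt1 (239 CPM).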

How the results depend on the processing

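Angpt2 kept its direction in all 22 alternatives and its call in 21; with the pericyte score as a covariate it was 3.40 and not called. Without 1 library at a time it ran from 3.84 to 4.49, Tek from -0.80 to -0.27, Tie1 from -0.066 to 0.29, Ptprb from -0.20 to 0.13, Foxo1 from -0.080 to 0.094 and Prmt1 from -0.35 to 0.043. Tie1, Ptprb and Foxo1 were not called in any fit, and their signs turned. Tie1 was -0.0031 with library size alone and -0.16 with endothelial marker scaling. Ptprb was 0.0035 without a filter, 0.25 with the pericyte score and 0.13 with the neuronal score. Foxo1 was -0.0065 with RLE size factors, -0.11 with library size alone, -0.064 with the upper quartile, -0.29 with endothelial marker scaling, -0.0064 with DESeq2, -0.064 without heterozygous 1 and knockout 2, -0.25 with the pericyte score and -0.23 with the neuronal score. The cause was not tested. Library size alone moved the median of all genes by -0.12 and endothelial marker scaling by -0.31, and the share of called genes that were higher in knockout went from 57.9% to 42.6% and 25.3%. The knockout mean of Angpt1 less the heterozygous mean was 0.38 CPM, and -0.29 to 0.63 CPM without 1 library at a time, lowest without knockout 3.

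Over all genes tested, 1293 were called, 2229 by DESeq2, 842 without heterozygous 1 and knockout 2, 300 without heterozygous 2 and knockout 1 (a library of each genotype with Y-linked and almost no Xist transcripts), 16 with the pericyte score, 54 with the neuronal score, and 579 to 1347 without 1 library at a time (579 without knockout 1, 625 without knockout 4, 787 without heterozygous 1, 790 without heterozygous 3). In the list of 27 Tie2 signalling genes 2 were called, against 0 without heterozygous 2 and knockout 1, with the pericyte score or with the neuronal score (3, 3 and 5 at an unadjusted edgeR p under 0.05), 1 without knockout 1 or knockout 4, and 1 to 3 over the fits without 1 library. In the list of FOXO targets 7 were called, against 3 without heterozygous 2 and knockout 1, 0 with the pericyte score (8 at an unadjusted p under 0.05), 1 with the neuronal score, and 5 to 7 without 1 library at a time.

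With the replicate block, which enters the replicate number as a covariate, Angpt2 was 4.11 (edgeR adjusted p = 0.00422) and 868 genes were called. The labels do not say that a number pairs libraries. Correlations of same-numbered deviations were -0.05 to 0.21, and 2 of 8 libraries correlated best with their own number. With the block, Itgb1 (0.85), Itgb3 (2.92) and Fli1 (-0.71) lost their calls at nearly the same fold change, and Sgk1 (0.75) gained one. Angpt1 had at most 48 counts in a library.

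Of 15 named list genes, 13 were called, and none of the 15 kept its side of the threshold and its direction in every alternative. The pericyte score ended the call of all 13, the neuronal score that of 12 (all but Klf2), and leaving out heterozygous 2 and knockout 1 that of 8, whereas Angptl4, Cdkn1a, Txnip, Trib1 and Fos kept theirs in the last of these. Both scores separated the genotypes themselves.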
